A study of Homo sapiens with 12 samples.

Results

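The 48 genes described here encode proteins that carry a cell through the G2 phase and mitosis. They were taken as a fixed list of symbols, and a member was kept when its normalised read count was at least 10 in at least 3 libraries. All 48 members passed, among 19281 genes kept of 62069 gene identifiers. RNA was measured in CUTLL1, an established human line of T-cell acute lymphoblastic leukaemia that carries a rearranged and active NOTCH1. GSI stands for Compound E, an inhibitor of gamma-secretase, the protease that releases the active part of NOTCH1. The 12 libraries fall into 4 groups of 3. GSI 12 h and GSI 48 h are cells given 1 µM Compound E for 12 or 48 h, and DMSO 12 h and DMSO 48 h are cells given the solvent for the same times. All cells were grown in serum-containing RPMI medium, and all libraries were made from poly-A RNA. All of them come from 1 cell line. Nothing in the labels says that the libraries numbered 1, 2 and 3 were separate cultures, and the p-values cover no more than the differences among the sequenced libraries.

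Entry into mitosis depends on the kinase CDK1 bound to A- and B-type cyclins, which CDC25 phosphatases switch on. Polo-like and Aurora kinases then build the spindle, kinetochore proteins attach chromosomes to it, and the spindle checkpoint holds back the anaphase-promoting complex until every chromosome is attached. Most of these genes are transcribed in late S phase, G2 and mitosis and repressed in resting cells and in G1. The DREAM complex represses them, while B-MYB (MYBL2) and FOXM1 with the MuvB core activate them, through a promoter element called the cell cycle genes homology region (CHR) and, in many promoters, nearby CCAAT boxes bound by NF-Y. In T-cell leukaemia with active NOTCH1, blocking gamma-secretase is known to slow the cell cycle in many lines.

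Promoter sequence was available from RefSeq, build GRCh38.p14, for 41 of the 48 members, as windows from 250 bases before to 50 after each annotated start. The CHR core was searched as TTTGAA or TTTAAA and the CCAAT box as CCAAT, each on both strands. TTTAAA is its own reverse complement, and the CHR and CCAAT letters do not overlap. A CHR core lay in a window of 34 of the 41 genes (82.9%), against 27.9% of all 27305 genes in the table. CCAAT lay in 33 of the 41 (80.5%), against 39.7% of all genes, and both kinds stood in the same window in 26 of 41 (63.4%), against 11.2%. A match of letters is a description and not a shown binding site. The promoters below, 150 bases up to the base before the start, belong to the members that were called between treatments or had the largest fold changes, with CCNB2 added for its row of CCAAT boxes. Capitals mark the CHR core and CCAAT, or their reverse complements TTCAAA and ATTGG, and positions count from the start, with −1 the last base shown.
CCNA2: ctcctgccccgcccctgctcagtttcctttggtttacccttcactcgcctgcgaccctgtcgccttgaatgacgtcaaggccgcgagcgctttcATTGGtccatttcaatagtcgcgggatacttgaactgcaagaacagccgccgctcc
KIF20B: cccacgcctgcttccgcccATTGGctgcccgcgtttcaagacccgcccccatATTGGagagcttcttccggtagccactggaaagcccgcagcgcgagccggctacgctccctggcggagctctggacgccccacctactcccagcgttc
CCNB1: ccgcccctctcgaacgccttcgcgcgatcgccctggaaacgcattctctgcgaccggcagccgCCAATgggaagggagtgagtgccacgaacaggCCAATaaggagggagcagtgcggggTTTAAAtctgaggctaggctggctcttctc
CCNB2: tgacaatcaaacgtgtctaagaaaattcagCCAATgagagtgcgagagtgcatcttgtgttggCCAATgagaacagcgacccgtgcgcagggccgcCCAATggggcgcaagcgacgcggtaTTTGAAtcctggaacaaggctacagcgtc
PLK1: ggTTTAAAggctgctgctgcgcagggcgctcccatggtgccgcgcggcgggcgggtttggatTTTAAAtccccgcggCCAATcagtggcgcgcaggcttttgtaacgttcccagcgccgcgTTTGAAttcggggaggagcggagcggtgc
KIF20A: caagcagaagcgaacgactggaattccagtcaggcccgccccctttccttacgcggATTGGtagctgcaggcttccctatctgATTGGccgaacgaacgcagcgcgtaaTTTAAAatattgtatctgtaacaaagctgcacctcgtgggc
CDC20: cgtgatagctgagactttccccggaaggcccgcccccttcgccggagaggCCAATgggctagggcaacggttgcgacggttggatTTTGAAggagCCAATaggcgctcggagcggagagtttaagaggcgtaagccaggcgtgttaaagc
CDC25C: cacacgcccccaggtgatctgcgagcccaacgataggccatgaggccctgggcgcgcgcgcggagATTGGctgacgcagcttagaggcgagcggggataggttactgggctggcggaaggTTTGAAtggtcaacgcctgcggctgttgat
SPC24: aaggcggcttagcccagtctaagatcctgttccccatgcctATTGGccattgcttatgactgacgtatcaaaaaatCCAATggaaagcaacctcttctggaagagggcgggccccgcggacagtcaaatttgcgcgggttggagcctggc

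These stretches lie at chr4:121823884-121824033, minus strand (CCNA2), chr10:89701440-89701589, plus strand (KIF20B), chr5:69167000-69167149, plus strand (CCNB1), chr15:59104996-59105145, plus strand (CCNB2), chr16:23678739-23678888, plus strand (PLK1), chr5:138178962-138179111, plus strand (KIF20A), chr1:43358831-43358980, plus strand (CDC20), chr5:138331805-138331954, minus strand (CDC25C, 1 of 4 annotated starts) and chr19:11155783-11155932, minus strand (SPC24). CCNB2, a mitotic cyclin, has CCAAT at −120, −87 and −54 and TTTGAA at −29. PLK1 has the same TTTGAA position, −29, and TTTAAA at −148 and −88. In CDC25C TTTGAA begins at −30, and in CCNB1 TTTAAA begins at −30. CCNA2 and SPC24 have CCAAT boxes and no exact CHR core in the window, and the 2 such cores of KIF20B lie after its start, at 24 and 30.

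At 73939612 to 160702764 recovered reads per library, every member was deeply counted, and the lowest member value in any library was 1726 normalised reads (CDC25C). Among T-cell genes CD3E lay between 53532 and 76042 and LCK between 44044 and 55655. CD2 (3958 to 13243), CD7 (5938 to 14071) and PTCRA (700 to 4282) were lower. The B-cell gene MS4A1 was at 0 in every library, and the myeloid genes CD14 and LYZ reached at most 33.6 and 22.6. The NOTCH1 target NRARP averaged 21930 in GSI 12 h, against 42352 in DMSO 12 h, and 1701 in GSI 48 h, against 3030.0 in DMSO 48 h. NRARP was thus lower under GSI at both times, yet the fall with the time label was larger than the fall with GSI. Of 10 NOTCH1 targets, limma called 9 lower at 48 h than at 12 h in DMSO (2.51% of all genes). In GSI it called 10 lower (2.37% of all genes). The DMSO 48 h cells therefore had low NOTCH1 target RNA without GSI, and the cause was not tested. Genes induced by low oxygen also moved with treatment, with 19 of 20 called higher in GSI at 12 h (10.1% of all genes) and 10 of 20 at 48 h (4.33% of all genes). Their median log2 level, relative to the mean of the 12 libraries, in libraries 1, 2 and 3 was 1.77, 0.27 and 1.86 for GSI 12 h, against −0.95, −1.16 and −0.97 for DMSO 12 h. It was 1.23, −0.21 and 0.71 for GSI 48 h, against −1.0, −1.08 and −0.75 for DMSO 48 h. The GSI libraries numbered 2 were the lowest of their groups on this list at both times.

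The members were abundant transcripts of these cells. Per kilobase of exon, their median level in DMSO 12 h was 4677 normalised reads, against 223 over 18344 genes with a length, and 38 of the 48 stood above the 90th percentile. TOP2A, the topoisomerase that untangles sister chromatids, was the highest at 25094 ± 2364 normalised reads per kilobase (SD, n = 3). MYBL2, the B-MYB transcription factor, followed at 16652 ± 1072, and TPX2, which activates Aurora A on the spindle, at 16449 ± 1001. These 2 did not differ beyond their spread. CDC25C was the lowest at 572 ± 47.8, below BIRC5 (survivin) at 1385 ± 29 and the kinetochore motor CENPE at 1516 ± 267, and these last 2 did not differ beyond their spread either.

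**Figure D1:**
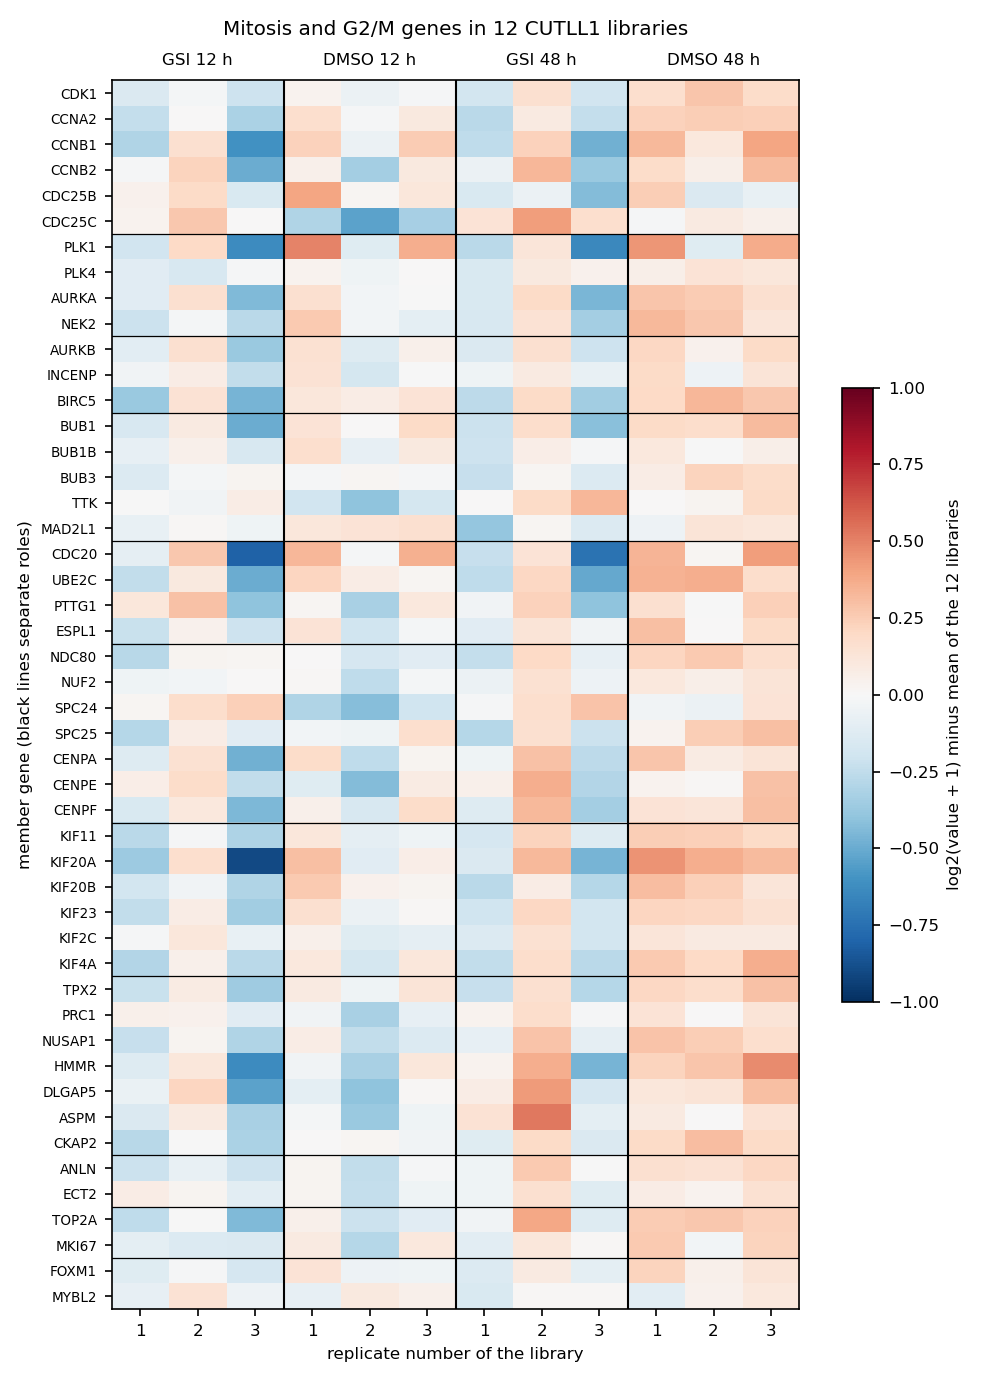
Level of each of the 48 genes (rows, grouped by role) in each of the 12 libraries (columns, GSI left of DMSO at each time), as log2(value + 1) minus the gene's mean over the 12 libraries. The GSI columns numbered 1 and 3 are mostly blue, the GSI columns numbered 2 are mostly pale or red, and the DMSO 48 h columns are mostly red.

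After 12 h, few of the 48 genes differed between GSI and DMSO cells by more than the libraries differed among themselves. CDC25C, a phosphatase that activates CDK1, and SPC24, a kinetochore subunit, were higher in GSI, by 1.41- and 1.37-fold. Limma called 2 of 48 members, both higher (6 at an unadjusted p under 0.05), against 21.5% of all 19281 genes called in either direction (10.1% higher and 11.4% lower). All GSI libraries were above all DMSO libraries for 3 members (17.1% of all genes) and below them for 2 (19.3%). The median member differed by −0.13 on the log2 scale, against 0.00 over all genes, with 36 members below 0 and 12 above. With upper-quartile scaling the calls over all genes split into 2536 higher and 1585 lower, against 1943 and 2201 here. In RNA from whole cultures, fewer cells in G2 and mitosis and less RNA per such cell cannot be told apart.

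After 48 h, 2 members were called lower in GSI cells, and most of the others lay below their DMSO level in the libraries numbered 1 and 3 but not in those numbered 2. CCNA2 (cyclin A2), which partners CDK2 and CDK1 through S phase and G2, and KIF20B, a kinesin of late mitosis and cytokinesis, fell to 0.771 and 0.766 times their DMSO level. The call rate was 2 of 48, both lower, against 9.68% of all genes called in either direction (4.33% higher and 5.35% lower). All GSI libraries were below all DMSO libraries for 8 members (18.5% of all genes) and above them for 1 (16.9%). The median member differed by −0.22, against −0.00 over all genes, and 44 of the 48 were below 0. A further 16 members had an unadjusted limma p under 0.05 without passing the adjusted threshold, among them BUB3 at an adjusted p of 0.0513. Neither this count nor the unadjusted edgeR count below has a share of all genes beside it, so neither shows an excess among the members. With upper-quartile scaling 1220 genes were called higher and 682 lower, against 834 and 1032 here, and 0 members were called. A block for the library number, shared by all 4 groups, was an alternative. With it 11 members were called lower and 0 higher, against 15.5% and 11.8% of all genes. That block does not pair GSI with DMSO at 48 h alone. Deviations of same-numbered libraries correlated at only 0.103 to 0.157 between treatments there. The 2 calls without the block were lost under several settings, among them edgeR on the recovered reads, which called 0 members (14 at an unadjusted p under 0.05) and 9.95% of all genes.

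**Figure D2:**
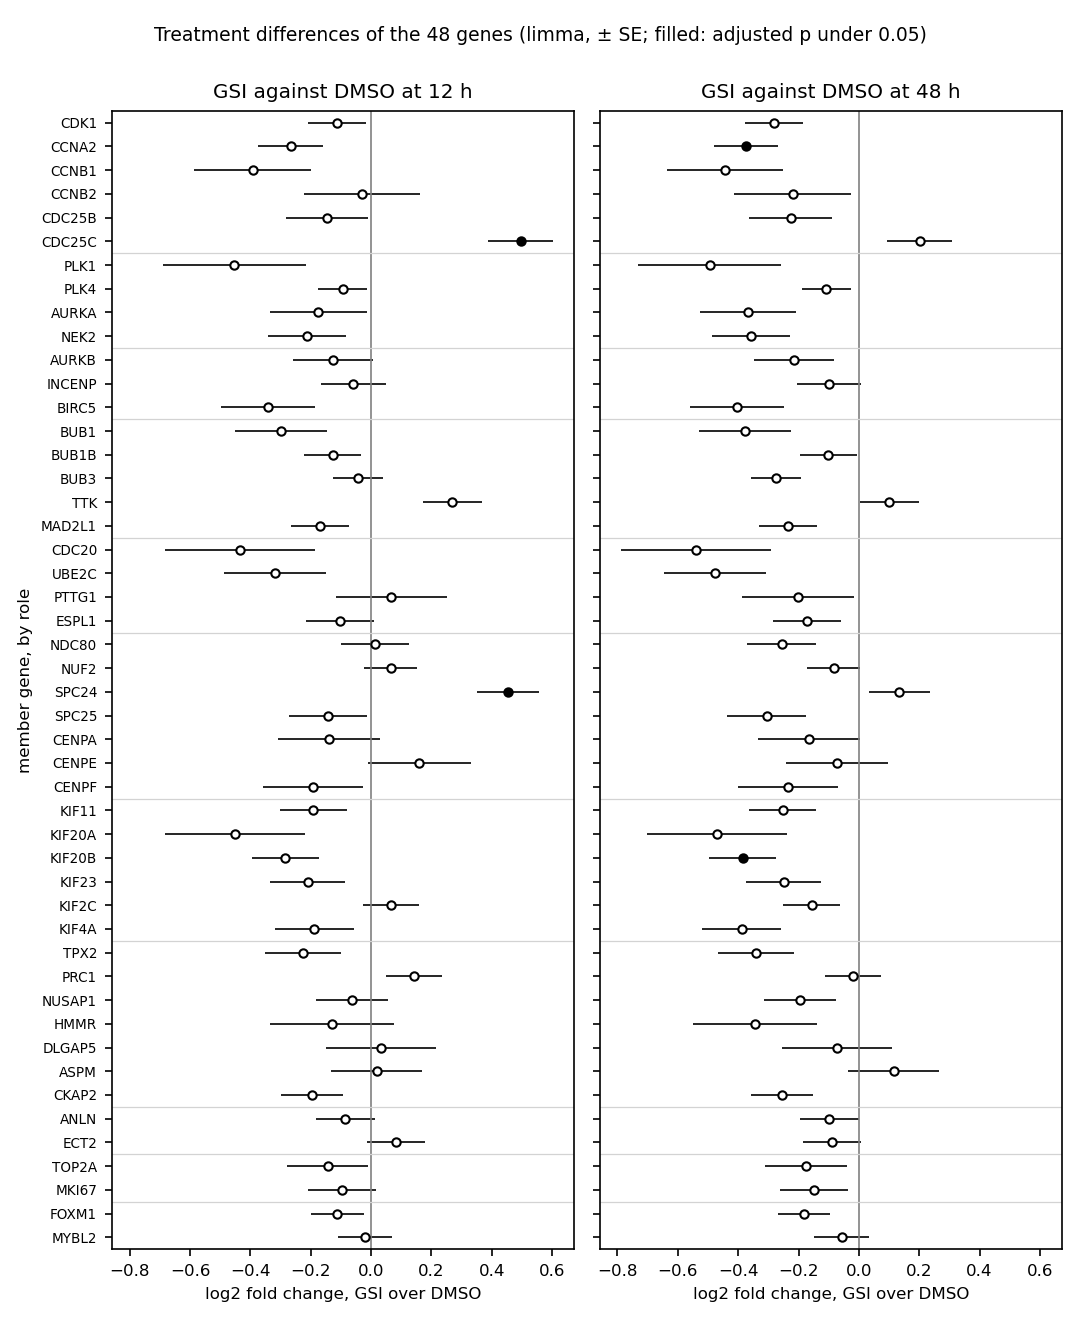
Log2 fold change of GSI over DMSO for each of the 48 genes at 12 h (left) and 48 h (right), from limma with standard errors; filled points have an adjusted p under 0.05. At 12 h CDC25C (0.50) and SPC24 (0.45) stand to the right, and at 48 h nearly all points lie left of 0, with CCNA2 (−0.37) and KIF20B (−0.38) called.

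At both times the number of members called lower in GSI depended on the GSI libraries numbered 2. The 12 h calls of CDC25C and SPC24 held in all 12 fits with 1 library left out. The median of the 48 genes, relative to the mean of the 12 libraries, was −0.13, 0.08 and −0.29 for numbers 1, 2 and 3 of GSI 12 h, against 0.08, −0.12 and 0.02 for DMSO 12 h. For GSI 48 h it was −0.15, 0.18 and −0.18, against 0.19, 0.12 and 0.19 for DMSO 48 h. The GSI library numbered 2 therefore lay among the DMSO libraries at 48 h and the libraries numbered 1 and 3 below all of them. Recovered reads in GSI 48 h were 73939612, 133774239 and 74245434 for numbers 1, 2 and 3, against 94803786 to 160702764 in DMSO 48 h. In GSI 12 h they were 101491147, 80840820 and 75781643, against 109616415 to 122490751 in DMSO 12 h. The part of depth in these levels was not tested. Number 2 was the highest of the GSI libraries for 40 of 48 members at 12 h and for 45 of 48 at 48 h, against 38.4% and 36.8% of all genes. Within the library numbers, 44, 19 and 45 of the 48 members were lower in GSI than in DMSO at 48 h in numbers 1, 2 and 3, with median log2 differences of −0.33, 0.08 and −0.36. Over all genes these medians were −0.029, −0.012 and −0.002. At 12 h 39, 5 and 41 were lower, with medians of −0.26, 0.21 and −0.28, against −0.005, −0.030 and 0.008 over all genes. Deviations of same-numbered libraries correlated weakly between treatments, at 0.068 to 0.272 at 12 h and 0.103 to 0.157 at 48 h. These differences by number are therefore no true pairing.

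Without both GSI libraries numbered 2, limma called 2 members higher and 14 lower at 12 h, against 13.6% and 16.2% of all genes. At 48 h it then called 0 higher and 25 lower, against 9.04% and 11.9% of all genes, with a median of −0.34. Those libraries were the highest of GSI for most members, so leaving them out lowers the members' GSI means by construction. The larger counts are therefore no separate support for a fall with GSI. The same libraries were the lowest of their groups on the hypoxia list, at 0.27 and −0.21, and the part of that list in the members' levels was not tested.

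**Figure D3:**
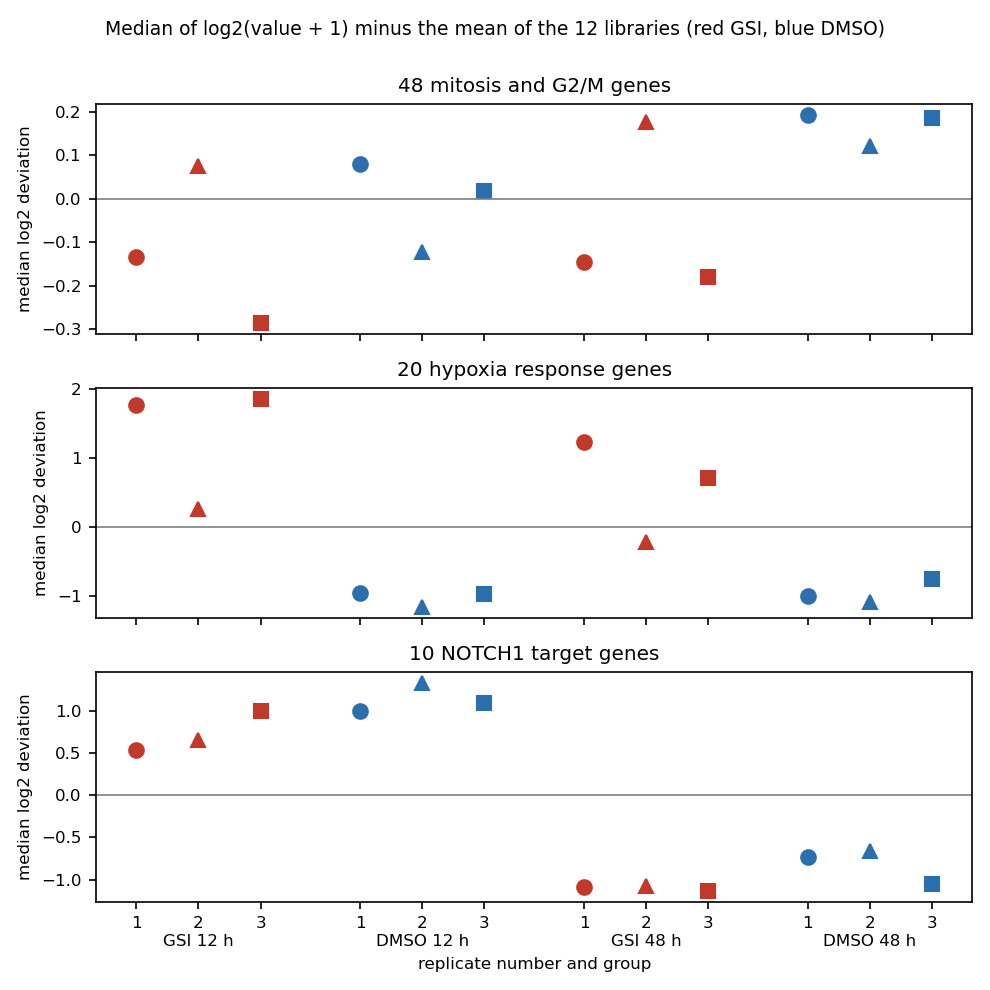
Median level in each library of the 48 genes (top), the 20 hypoxia response genes (middle) and the 10 NOTCH1 target genes (bottom), as log2(value + 1) minus the gene's mean over the 12 libraries; red is GSI, blue is DMSO, and each panel has its own scale. For the 48 genes the GSI libraries numbered 2 stand at 0.08 and 0.18, above the other GSI libraries, and on the hypoxia genes they stand below them.

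CDK1 and its partners come first in the order of mitotic entry, and library values below are normalised read counts in the order of the library numbers 1, 2 and 3. CCNA2 had 21664, 25541 and 20464 in GSI, against 28684, 25257 and 27219 in DMSO, after 12 h. After 48 h it had 21174, 27166 and 21655 in GSI, against 29910.2, 30243 and 30032 in DMSO. At 12 h the GSI library numbered 2 lay inside the DMSO range, and at 48 h all 3 GSI libraries were below all 3 DMSO libraries, which differed by little among themselves. Its log2 fold change was −0.27 ± 0.11 SE, adjusted p = 0.0883, at 12 h and −0.37 ± 0.11 SE, adjusted p = 0.0441, at 48 h by limma. With a block for the library number, limma called the 12 h difference as well (adjusted p = 0.0494). CDK1, the mitotic kinase, had 24226, 26406 and 23229 in GSI, against 27394, 25788 and 26559 in DMSO, at 12 h. Its counts after 48 h were 23648, 29893 and 23439 in GSI, against 30055, 32532 and 30422 in DMSO. All GSI libraries were again below all DMSO libraries at 48 h, although the difference of −0.28 ± 0.10 SE missed the threshold (adjusted p = 0.0759). It passed in limma with a block for the library number (−0.28 ± 0.08 SE, adjusted p = 0.0212).

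CCNB1 (cyclin B1), the cyclin that drives CDK1 at mitotic entry, had 18922, 26058 and 15294 in GSI, against 27303, 22388 and 27873 in DMSO, at 12 h. At 48 h its values were 19582, 27371 and 16696 in GSI, against 29193, 25156 and 30658 in DMSO. In both sets the GSI libraries numbered 1 and 3 were below every DMSO library and the one numbered 2 was within the DMSO range. The fold changes of −0.39 ± 0.19 SE at 12 h and −0.44 ± 0.19 SE at 48 h did not pass (limma adjusted p = 0.159 and 0.145). CCNB2, which like CCNB1 has CCAAT boxes and a CHR core in its promoter window, had smaller differences of −0.03 and −0.22.

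The CDC25 phosphatases lay on different sides of 0. CDC25C had 2562, 3015 and 2506 in GSI, against 2021, 1726 and 1980.2 in DMSO, after 12 h. Its 48 h values were 2748, 3335 and 2812 in GSI, against 2471, 2654 and 2583 in DMSO. The GSI libraries were above all DMSO libraries at both times. The difference was called at 12 h (0.50 ± 0.11 SE, adjusted p = 0.0087) and not at 48 h (0.20 ± 0.11 SE, adjusted p = 0.228). CDC25B, which acts early at the centrosome, had 32079, 35529 and 28022 in GSI, against 40829, 31567 and 33599.9 in DMSO, at 12 h and 27942, 29882 and 22993 in GSI, against 36942, 28068 and 29589.9 in DMSO, at 48 h. Its groups overlapped at both times, with log2 fold changes of −0.15 and −0.23.

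Among the mitotic kinases, PLK1 showed one of the widest gaps between libraries. PLK1, which drives centrosome maturation and many later steps, had 16459.6, 21511 and 12122 in GSI, against 26463, 17235 and 24175 in DMSO, after 12 h. At 48 h it had 15597, 20380 and 11993 in GSI, against 25449.6, 17226 and 24289 in DMSO. In DMSO the library numbered 2 was the lowest and in GSI it was the highest, so the groups met at that number. The differences of −0.45 ± 0.24 SE and −0.49 ± 0.24 SE were among the most negative of the 48 and neither passed (limma adjusted p = 0.182 and 0.179). AURKA, the Aurora kinase of the spindle poles, had 12678, 15363 and 10094 in GSI, against 15342, 13475 and 13669.6 in DMSO, at 12 h and 12364, 15716 and 9996 in GSI, against 16678, 16342 and 15312 in DMSO, at 48 h. The GSI library numbered 2 was inside the DMSO range at 48 h and above it at 12 h. Its 48 h difference was −0.37 ± 0.16 SE, adjusted p = 0.142, by limma, and −0.37 ± 0.12 SE, adjusted p = 0.0445, with the block for the library number. NEK2, which separates centrosomes, differed by −0.21 and −0.36, and PLK4, which starts centriole duplication, by −0.09 and −0.11. With the block NEK2 was called at 48 h (limma, adjusted p = 0.024).

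The chromosomal passenger complex corrects faulty attachments and guides cytokinesis. Without the block for the library number none of its 3 members was called in either treatment comparison. BIRC5 differed most, by −0.34 ± 0.16 SE at 12 h and −0.40 ± 0.16 SE at 48 h, and at 48 h its GSI libraries were all below its DMSO libraries. With the block the 48 h difference was called (−0.40 ± 0.12 SE, adjusted p = 0.0322, by limma), and so was the 12 h difference (adjusted p = 0.0487). The kinase AURKB differed by −0.13 and −0.21 and the scaffold INCENP by −0.06 and −0.10.

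At 12 h the spindle checkpoint genes had differences on both sides of 0, which were not tested against one another. BUB1, a checkpoint kinase at the kinetochore, had 33912, 40171 and 26898 in GSI, against 41593, 37919 and 43254 in DMSO, after 12 h. The 48 h counts of BUB1 were 32641, 42805 and 28366 in GSI, against 43092, 42734 and 47150.1 in DMSO. Its GSI libraries numbered 1 and 3 were below the DMSO range at both times and the one numbered 2 was within it. Its differences were −0.30 ± 0.15 SE and −0.38 ± 0.15 SE (limma adjusted p = 0.17 and 0.117). BUB3, which carries BUB1 and BUBR1 to kinetochores, differed by −0.27 ± 0.08 SE at 48 h, where all GSI libraries lay below all DMSO libraries, and was called with the block (limma, adjusted p = 0.00734).

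TTK (MPS1), the kinase at the head of the checkpoint, had 15188, 14850.3 and 16000.3 in GSI, against 13307, 11498 and 13469 in DMSO, at 12 h. Its later values were 15256, 17405 and 19151 in GSI, against 15292, 15496 and 17416 in DMSO. At 12 h every GSI library was above every DMSO library, while the 48 h groups overlapped. The 12 h difference was 0.27 ± 0.10 SE, adjusted p = 0.0649, just short of the threshold. It was called with the block (limma, adjusted p = 0.0154). MAD2L1 (MAD2), the inhibitor that sequesters CDC20, differed by −0.17 and −0.23, and BUB1B (BUBR1) by −0.13 and −0.10. MAD2L1 was called at 48 h with the block (limma, adjusted p = 0.0318).

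Of the anaphase control genes UBE2C was called between treatments, at 48 h with the block for the library number, and none was called without it. CDC20, the activator of the anaphase-promoting complex, had 17370.2, 22348 and 10586 in GSI, against 23320.2, 18343 and 23706 in DMSO, after 12 h. At 48 h the CDC20 values were 15730.3, 20368 and 11074 in GSI, against 23458, 18754 and 24774 in DMSO. The GSI library numbered 3 had less than any other library of its time point and the one numbered 2 lay within the DMSO range. Its log2 differences were −0.43 ± 0.25 SE and −0.54 ± 0.25 SE, the most negative of the 48 members at 48 h (limma adjusted p = 0.226 and 0.167). UBE2C, the enzyme that loads ubiquitin for the complex, had 12283, 15539 and 10290.3 in GSI, against 16849, 15295 and 14764 in DMSO, at 12 h and 12202, 16810.4 and 10206 in GSI, against 18485, 18675 and 16372 in DMSO, at 48 h. Only the GSI library numbered 2 reached the DMSO range of UBE2C at either time. The 48 h difference was −0.48 ± 0.17 SE, adjusted p = 0.0829, and with the block −0.48 ± 0.12 SE, adjusted p = 0.0141. Securin (PTTG1) differed by 0.07 and −0.20 and separase (ESPL1), which it restrains, by −0.10 and −0.17.

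The 4 subunits of the NDC80 complex, the main microtubule coupler of the kinetochore, were not tested against one another, and SPC24 was called at 12 h. SPC24 had 6769.7, 7542 and 7878 in GSI, against 5422, 4959 and 5813 in DMSO, after 12 h. Its counts at 48 h were 6594, 7496 and 8137 in GSI, against 6489, 6389.9 and 7333 in DMSO. GSI libraries were all higher than DMSO libraries at 12 h and the groups overlapped at 48 h. Its differences were 0.45 ± 0.10 SE, adjusted p = 0.00979, at 12 h and 0.13 ± 0.10 SE, adjusted p = 0.396, at 48 h. NDC80 itself had 14141, 17461 and 17427 in GSI, against 17249.5, 15308 and 15844 in DMSO, at 12 h and 14545, 19692 and 16197 in GSI, against 19893, 20549 and 19339 in DMSO, at 48 h. Its groups overlapped at both times, with log2 differences of 0.01 and −0.26 ± 0.11 SE. NUF2 differed by 0.06 and −0.08, and SPC25 by −0.14 and −0.31, the last of which was called with the block (limma, adjusted p = 0.0435).

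CENPA, the histone H3 variant that marks centromeres, had 4650.1, 5659 and 3639 in GSI, against 5784, 4269 and 5189 in DMSO, at 12 h. At 48 h CENPA had 4939, 6239 and 4244 in GSI, against 6159.9, 5373 and 5558 in DMSO. Its GSI library numbered 2 was the highest of all libraries at 48 h and its groups overlapped at both times, with differences of −0.14 and −0.16. The kinetochore motor CENPE differed by 0.16 and −0.07 and CENPF, a large kinetochore protein, by −0.19 and −0.24. None of these 3 was called.

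All 6 kinesins were below 0 at 48 h, and 5 of 6 at 12 h. KIF20B had 13647, 15058 and 12544 in GSI, against 18519.7, 15944 and 15753 in DMSO, after 12 h. At 48 h it had 12843, 16248 and 12676 in GSI, against 19167, 18284 and 16777 in DMSO. Its GSI libraries were below all DMSO libraries at both times. The difference was −0.28 ± 0.11 SE, adjusted p = 0.0823, at 12 h and −0.38 ± 0.11 SE, adjusted p = 0.0466, at 48 h. With the block the 12 h difference of KIF20B was called as well (limma, adjusted p = 0.0295). KIF11 (Eg5), the motor that pushes spindle poles apart, had 26200.2, 31362 and 25626 in GSI, against 34228, 29818 and 30742 in DMSO, at 12 h and 28184, 36963 and 28929 in GSI, against 37643, 37385 and 36207 in DMSO, at 48 h. Only its GSI library numbered 2 reached the DMSO values, and its 48 h difference was −0.25 ± 0.11 SE, adjusted p = 0.145. KIF20A, which carries the passenger complex to the central spindle, had the widest spread of the kinesins, with differences of −0.45 ± 0.23 SE and −0.47 ± 0.23 SE. KIF4A, a motor on chromosome arms, differed by −0.39 ± 0.13 SE at 48 h with no overlap between groups (limma adjusted p = 0.0743). KIF23, a part of the central spindle, differed by −0.21 and −0.25 and the microtubule depolymerase KIF2C by 0.07 and −0.16.

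**Figure D4:**
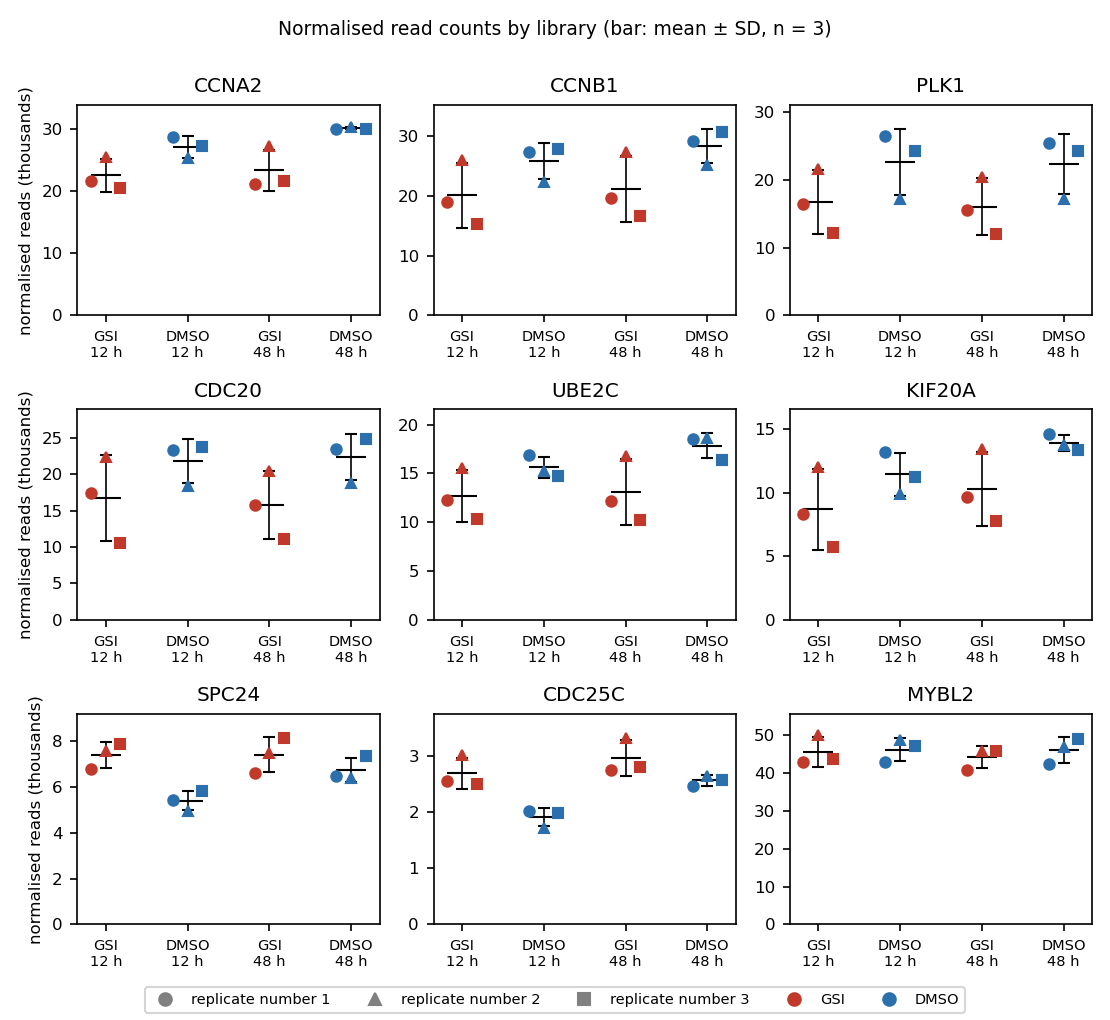
Normalised read counts in each library for 9 of the genes, with the mean and SD of each group (n = 3); symbols give the library number, red is GSI, blue is DMSO, and the axes start at 0. The GSI libraries numbered 2 (triangles) are the highest GSI points for CCNA2, CCNB1, PLK1, CDC20, UBE2C and KIF20A and lie near DMSO, whereas SPC24 and CDC25C are higher in every GSI library than in DMSO at 12 h.

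Spindle assembly genes gave no call between treatments without the block. With it CKAP2 was called at 12 h and at 48 h (limma, adjusted p = 0.0433 and 0.0191). TPX2 had 48654, 60077 and 44444 in GSI, against 60660.4, 55207 and 62032 in DMSO, after 12 h. Its values at 48 h were 48542, 63640 and 46754 in GSI, against 65556, 64414 and 69679.8 in DMSO. All GSI libraries were below all DMSO libraries of TPX2 at 48 h, with a difference of −0.34 ± 0.13 SE, adjusted p = 0.0936. NUSAP1, a microtubule bundler near chromosomes, had 33733, 40318 and 32019 in GSI, against 41491, 33359.5 and 35884 in DMSO, at 12 h and 37330, 48196 and 37128 in GSI, against 48273, 46864 and 44314 in DMSO, at 48 h. ASPM, a spindle pole protein, had 34699, 40902 and 30656 in GSI, against 37898, 29649.9 and 37238 in DMSO, at 12 h and 42447, 55409.6 and 35912 in GSI, against 40851, 38448 and 42318 in DMSO, at 48 h. For both the treatment groups overlapped at each time, and ASPM was the only member of its role above 0 at 48 h (0.12 ± 0.15 SE). Of the others, CKAP2 differed by −0.25 ± 0.10 SE at 48 h without overlap, and HMMR by −0.34 ± 0.21 SE, DLGAP5 by −0.07 and PRC1, which bundles the central spindle, by −0.02 with overlap.

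No cytokinesis or chromosome gene was called between treatments, with or without the block. At 48 h the GSI libraries numbered 1 and 3 of ANLN, ECT2 and TOP2A nevertheless lay below all DMSO libraries. For MKI67 this held for number 1 and not for number 3. ANLN, the anillin scaffold of the contractile ring, had 17167, 18921 and 17247 in GSI, against 20228, 16765 and 19732 in DMSO, at 12 h and 19343, 23899 and 19808 in GSI, against 22244, 21949 and 22999 in DMSO, at 48 h. Its treatment groups overlapped and its differences were −0.09 and −0.10, while those of ECT2, an activator of RhoA, were 0.08 and −0.09. TOP2A had 143544, 170630 and 126448 in GSI, against 178040, 148062 and 158483 in DMSO, after 12 h. At 48 h TOP2A had 167172, 224266 and 157194 in GSI, against 204870, 206207 and 201025 in DMSO. The GSI library numbered 2 was the highest of the 6 libraries at 48 h, and the differences were −0.14 ± 0.14 SE and −0.18 ± 0.14 SE. MKI67, which encodes the proliferation marker Ki-67, had 147589, 143429 and 142853 in GSI, against 168223, 129382 and 169583 in DMSO, at 12 h and 146974, 170544 and 159205 in GSI, against 189476, 155174 and 184468 in DMSO, at 48 h. Its groups overlapped at both times and differed by −0.10 and −0.15.

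Neither transcription factor of these genes was called. FOXM1 had 17052, 18402 and 16551 in GSI, against 20368, 17926 and 17970.4 in DMSO, at 12 h. At 48 h FOXM1 had 16872, 19699 and 17377 in GSI, against 21607, 19254 and 20263 in DMSO. At both times its GSI library numbered 2 was within the DMSO range and the other 2 were below it, and its differences were −0.11 ± 0.09 SE and −0.18 ± 0.09 SE (limma adjusted p = 0.375 and 0.181). MYBL2 had 42953, 50154 and 43818 in GSI, against 42916, 48658 and 47152 in DMSO, at 12 h and 40964, 45838 and 45889 in GSI, against 42315, 46789.9 and 49019 in DMSO, at 48 h. The groups overlapped at both times and differed by −0.02 and −0.06. Members with a CHR core in a promoter window had a median fold change of −0.11 at 12 h and −0.20 at 48 h (34 genes), and the 7 matched members without one −0.19 and −0.25.

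The spread of the members within groups differed between the groups. The SD of log2 values had a median over the members of 0.17 in GSI 12 h, 0.14 in DMSO 12 h, 0.22 in GSI 48 h and 0.08 in DMSO 48 h. Over all genes the corresponding medians were 0.22, 0.18, 0.18 and 0.18. The members were thus spread less than the typical gene in DMSO 48 h and more in GSI 48 h. They were far more abundant than the typical gene, and genes of like level were not compared. In GSI 12 h the widest were CDC20 (SD 0.55), KIF20A (0.53) and PLK1 (0.41), and the narrowest were NUF2 (0.02) and MKI67 (0.03).

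In solvent the members differed with time. Over the same interval 9 of the 10 NOTCH1 targets were called lower in DMSO, and their part in the members' levels was not tested. DMSO cells had more of most members at 48 h than at 12 h, by 0.19 on the log2 scale for the median member, against −0.00 over all genes, and 43 of 48 members were above 0. CDC25C was the 1 member called by limma without pairing (0.43 ± 0.11 SE, adjusted p = 0.0397), against 4.53% of all genes (2.03% higher and 2.51% lower). The libraries of 1 number and 1 treatment deviated together over time, and with a block for the number within each treatment 37 members were higher and 1 lower, against 13.9% and 15.2% of all genes. The 1 lower member was CDC25B (−0.17 ± 0.04 SE, adjusted p = 0.00563). In all 3 numbers 43 of 48 members were higher at 48 h, against 31.1% of all genes. All DMSO 48 h libraries were above all DMSO 12 h libraries for 24 members, against 11.2% of all genes, and below for 0, against 13.1%.

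The members of smallest p in DMSO over time were CDC25C, TTK, SPC24, NUSAP1 and NDC80. Their 48 h DMSO libraries were all above their 12 h DMSO libraries, by 0.33 ± 0.10 SE for TTK, 0.32 ± 0.10 SE for SPC24, 0.34 ± 0.12 SE for NUSAP1 and 0.31 ± 0.11 SE for NDC80. With the block within treatment their adjusted p-values from limma lay at 0.000225 (SPC24), 0.000377 (CDC25C), 0.000476 (NUSAP1), 0.00117 (TTK) and 0.00183 (NDC80). Members that were far from a change over time in DMSO were PLK1 at −0.02, CDC20 at 0.03, BUB1B at −0.01 and MYBL2 at −0.01.

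In GSI cells few members differed with time. The median member differed by 0.05 between GSI 48 h and GSI 12 h, and 0 of 48 were called by limma (2 at an unadjusted p under 0.05), by edgeR or by DESeq2. Limma called 3.98% of all genes there (1.62% higher and 2.37% lower), edgeR 3.84% and DESeq2 6.54%. With the block within treatment 10 were higher and 1 lower, against 12.6% and 16.1% of all genes. Those of smallest p without the block were ANLN (0.24 ± 0.10 SE), TOP2A (0.31 ± 0.14 SE), ASPM (0.32 ± 0.15 SE), CDC25B (−0.24 ± 0.14 SE) and NUSAP1 (0.21 ± 0.12 SE). ANLN was the 1 member whose GSI 48 h libraries were all above its GSI 12 h libraries (9.94% of all genes), and 0 were below (9.91%). CDC25B was again the member that fell with the block (−0.24 ± 0.04 SE, adjusted p = 0.000584), so this phosphatase was lower at 48 h under both treatments.

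**Figure D5:**
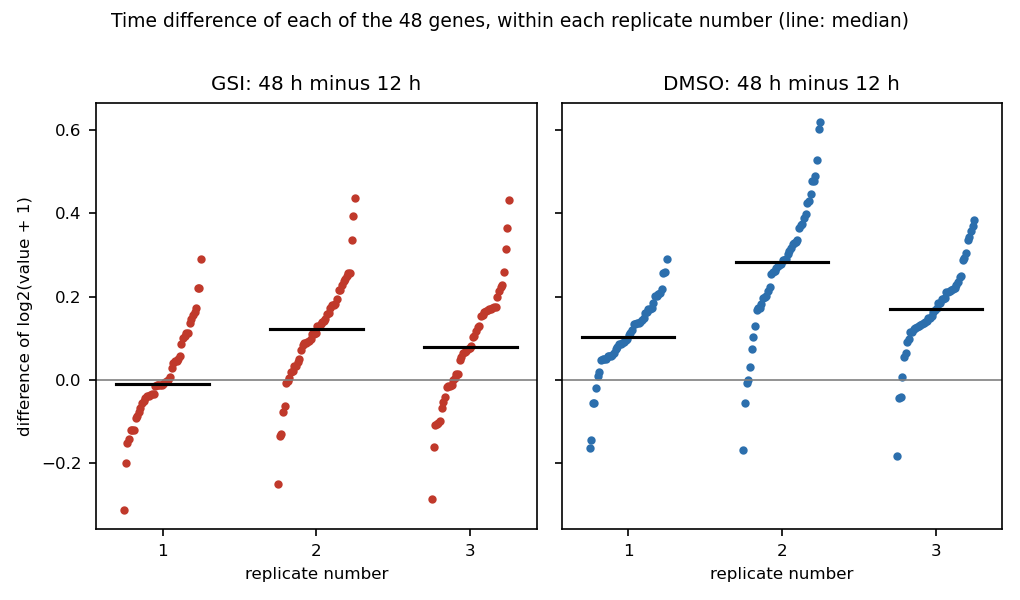
Difference of log2(value + 1) between 48 h and 12 h for each of the 48 genes, within each library number, in GSI (left) and DMSO (right); each point is a gene, sorted by value, and the line is the median. In DMSO 43, 44 and 45 of the 48 genes are above 0 in numbers 1, 2 and 3, and in GSI 21, 41 and 35 are.

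The change of the GSI effect with time was negative for 46 of 48 members, with a median of −0.10, against 0.00 over all genes. Without pairing limma called 0 members and 0 genes overall (1 member and 875 genes at an unadjusted p under 0.05), edgeR called 0 members and DESeq2 0 (0.316% of all genes). With the block within treatment 2 members were called, both with a lower effect at 48 h, against 1.98% of all genes called higher and 4.12% lower. They were SPC24 (−0.32 ± 0.06 SE, adjusted p = 0.0121) and PTTG1 (−0.27 ± 0.07 SE, adjusted p = 0.0439). In SPC24 the DMSO level was higher at 48 h, 0.32 over 12 h, while the GSI level differed by 0.00.

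Other genes of the same pathways were grouped in lists, whose counts stand against 10.1% of all genes called higher and 11.4% lower at 12 h, and 4.33% higher and 5.35% lower at 48 h. At 12 h the share called in either direction was above the 21.5% of all genes for the anaphase-promoting complex (35.3%) and the 5 CDK inhibitors (60.0%), and in the other lists of cell cycle genes it was between 5.0% and 17.6%. With the block at 48 h the background was 11.8% higher and 15.5% lower. Of 20 condensin and cohesin genes, 0 rose and 1 fell at 12 h and 0 rose and 2 fell at 48 h (3 with the block). The cohesin subunit STAG1 fell at both times (−0.52 ± 0.10 SE, adjusted p = 0.00545, and −0.46 ± 0.10 SE, adjusted p = 0.0207), and the condensin II subunit NCAPH2 at 48 h (−0.25 ± 0.07 SE, adjusted p = 0.047), while sororin (CDCA5), which protects cohesin, differed by −0.31 at 48 h without passing. Of 17 genes of the anaphase-promoting complex, 1 rose and 5 fell at 12 h, and 0 rose and 2 fell at 48 h (5 with the block). ANAPC1, its largest subunit, fell at both times (−0.58 ± 0.11 SE, adjusted p = 0.00466, and −0.46 ± 0.11 SE, adjusted p = 0.0236), as did ANAPC13 (−0.44 and −0.50), and ANAPC7 (−0.45) and ANAPC5 (−0.25) fell at 12 h.

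Of 45 further spindle, kinetochore and cytokinesis genes, 1 rose and 3 fell at 12 h, and 0 rose and 1 fell at 48 h (1 and 13 with the block). MIS18A, which helps load CENPA, fell at 12 h (−0.43 ± 0.12 SE, adjusted p = 0.0212), as did ZWILCH (−0.36), a subunit of the RZZ complex of the kinetochore. KNTC1 (ROD), another subunit of that complex, rose (0.34 ± 0.10 SE, adjusted p = 0.0245). CENPN, a reader of CENPA chromatin, fell at 48 h (−0.43 ± 0.12 SE, adjusted p = 0.0379). Of 17 regulators of mitotic entry and exit, 2 rose and 1 fell at 12 h and none passed at 48 h, where 5 had an unadjusted limma p under 0.05 and 5 fell with the block. LATS2, a Hippo pathway kinase, rose (2.42 ± 0.41 SE, adjusted p = 0.00341), its paralogue LATS1 fell (−0.31) and MASTL (Greatwall), which keeps PP2A inhibited in mitosis, rose (0.31).

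Of 13 genes of the MuvB and DREAM complexes, 0 rose and 2 fell at 12 h, and 0 rose and 1 fell at 48 h (2 with the block). E2F4, the repressor E2F of DREAM, fell at both times (−0.51 ± 0.10 SE, adjusted p = 0.00513, and −0.38 ± 0.10 SE, adjusted p = 0.031), and its partner TFDP1 fell at 12 h (−0.32), while RBL1 (p107) differed by −0.26. Of 5 CDK inhibitors, 2 rose and 1 fell at 12 h, and 0 rose and 1 fell at 48 h (1 and 1 with the block). CDKN1A (p21) fell at both times (−0.91 ± 0.26 SE, adjusted p = 0.0262, and −1.0 ± 0.26 SE, adjusted p = 0.0339), and CDKN1C (p57, 1.52) and CDKN1B (p27, 0.44) rose at 12 h. Of 34 DNA replication genes, 1 rose and 2 fell at 12 h, and 0 rose and 4 fell at 48 h (12 with the block). Cyclin E2 (CCNE2) fell at both times (−0.52 ± 0.08 SE, adjusted p = 0.0022, and −0.56 ± 0.08 SE, adjusted p = 0.00309), GINS3, a helicase subunit, likewise (−0.43 and −0.42), and RRM2, a subunit of ribonucleotide reductase, fell at 48 h (−0.41). The 3 hypoxia response genes of smallest p at 12 h were ADM (6.59), PFKFB4 (4.30) and BNIP3 (4.0), all higher in GSI. With the block 16 of the 20 hypoxia genes rose at 48 h. Of the 10 NOTCH1 targets 5 fell at 12 h and 3 at 48 h (1 rose and 6 fell with the block), among them NRARP (−0.96 and −0.83), SHQ1 (−0.48 and −0.55) and MYC, which fell at 12 h (−0.53).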

How the data were processed

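Poly-A RNA of CUTLL1 cells was sequenced in 12 libraries, 3 in each of 4 groups. Per the submitters' processing notes, FastQC 0.10.1, TopHat2 2.0.10, HTSeq 0.6.1, DESeq2 and the build hg19 were used. Their settings and any use of strand were not stated, so reads of overlapping or antisense genes cannot be separated. The authors deposited a normalised signal, which is the reads counted per gene after division by the library's size factor. Values were whole multiples of 1 read in every library, 100% of them within 0.01, and the recovered depth was 73939612 to 160702764 reads.

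Genes with a value of at least 10 in 3 libraries were kept. The main test was limma 3.58.1 (R 4.3.3) on log2(value + 1) over all 12 libraries with a mean per group, adjusted over 19281 genes by Benjamini-Hochberg and called under 0.05. Fold changes on this scale understate those of low genes. Counts at an unadjusted p under 0.05 have no count of all genes beside them, except for the change of the GSI effect. On the recovered reads edgeR 4.0.16 called 4201 genes between treatments at 12 h and 1919 at 48 h, and over time 931 in DMSO and 740 in GSI, and DESeq2 1.42.0 was also run. Other scalings, pseudocounts, filters, left-out libraries and a block for the library number were alternatives. Deviations from group means of same-numbered libraries correlated at 0.103 to 0.157 between treatments at 48 h, 0.545 to 0.612 over time in DMSO and 0.400 to 0.545 in GSI. Pairing over time comes from the shared numbers in the labels and these correlations, which were low between treatments at 48 h. The block for the library number without regard to treatment was shared by all 4 groups. The limma step was tested on simulated data.

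Members and lists were chosen with earlier results of these data known. Values in every library are given for 16 named members, members called between treatments and the 5 of smallest p in each comparison over time, and from each list the 3 of smallest p in a treatment comparison. Not every gene taken by this rule from the lists is reported at both times. Symbols came from a table of Ensembl identifiers, and exon lengths from GENCODE 29. Promoters came from RefSeq.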

Additional observations from a re-analysis of the deposited data

Results flagged for a closer look

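Between 12 and 48 h the GSI effect differed for SPC24, a kinetochore subunit, by −0.32 ± 0.06 SE, adjusted p = 0.0121, in limma with a block for the library number within each treatment. The same difference was flagged for PTTG1 (securin), at −0.27 ± 0.07 SE, adjusted p = 0.0439. Without the block neither was called. SPC24 had 6769.7, 7542 and 7878 in GSI, against 5422, 4959 and 5813 in DMSO, normalised reads at 12 h. PTTG1 had log2 fold changes of 0.07 at 12 h and −0.20 at 48 h.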

How the results depend on the processing

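The number of the 48 genes called between treatments depended most on the block for the library number and on the GSI libraries numbered 2. The share of all genes called under the same setting stands in parentheses. At 12 h the count was 2 (21.5%), with 7 under the replicate block (36.1%), 16 without both GSI libraries numbered 2 (29.8%) and 2 to 11 with 1 library left out, 11 being without number 2 of GSI 12 h (29.4%). The 12 h libraries shared little more than a number (correlations of 0.068 to 0.272, and 2 of 3 numbers correlated best with their own). The block called CDC25C, SPC24 and TTK higher and KIF20B, CCNA2, BIRC5 and CKAP2 lower there, and 3178 genes higher and 3773 lower over the whole table. At 48 h the count was 2 (9.68%), with 0 without a filter on low values (2.95%), 0 with upper-quartile scaling (9.86%), 1 with TMM scaling (9.48%), 0 with edgeR (9.95%), 11 under the replicate block (27.3%), 25 without both GSI libraries numbered 2 (21.0%) and 0 to 18 with 1 library left out. Leaving out number 2 of GSI 48 h gave 18 (15.7%) and number 2 of GSI 12 h gave 5 (14.2%). Leaving out number 1 or 2 of DMSO 12 h gave 1 (8.35% and 9.23%). The count was 0 on leaving out number 1 of GSI 12 h, number 3 of DMSO 12 h, number 1 or 3 of GSI 48 h or any library of DMSO 48 h (0.617% to 7.97%).

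Over time in DMSO the count was 1 (4.53%), with 0 without a filter (1.88%), 2 with DESeq2 (8.09%), 2 with only the groups compared (5.18%), 4 under the replicate block (12.3%), 38 with the replicate block within each treatment (29.2%), 3 without both GSI libraries numbered 2 (6.01%) and 0 to 1 with 1 library left out. Its call, CDC25C, was lost on leaving out number 1 of GSI 12 h, number 3 of GSI 48 h or any DMSO library. Over time in GSI it was 0 and 11 with the replicate block within each treatment, and for the change of the GSI effect 0 and 2 with that block. With 1 library left out, the median log2 fold change of the members ranged from −0.19 to −0.064 at 12 h, −0.34 to −0.15 at 48 h, 0.12 to 0.24 over time in DMSO, −0.070 to 0.14 over time in GSI and −0.23 to −0.020 for the change of the effect. Pseudocounts of 0.5 and 8 and a filter of 50 left these counts within 1.5 times. Upper-quartile scaling moved all genes called from 1943 higher and 2201 lower to 2536 and 1585 at 12 h, and from 834 and 1032 to 1220 and 682 at 48 h. The cause of these changes was not tested.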
